A study of Arabidopsis thaliana with 8 samples.

Results

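Salicylic acid is the hormone that plants use against pathogens that feed on living tissue, and 10 genes that make it, control it or answer to it were followed here in Arabidopsis thaliana seedlings. They were chosen by name as salicylic acid synthesis and pathogenesis-related (PR) genes, and all 10 of 10 were found among the 25198 genes of the deposited table. All 10 passed the filter on low counts, which left 20866 genes for the tests. PR1, PRB1, BGL2, PR5 and PCC1 are response genes, ICS1 and EDS5 serve synthesis and export, EDS1 and PAD4 act upstream of synthesis, and NPR1 is a receptor of the hormone.

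Messenger RNA was sequenced in 8 libraries of whole seedlings, with 2 libraries for each of 4 genotypes in the Col background: chr11/17, rlt1/2, fha2 and the wild type Col. CHR11 and CHR17 encode the ATPases that drive ISWI chromatin remodellers, RLT1 and RLT2 encode DDT-domain subunits of those complexes, and FHA2 encodes a protein with a forkhead-associated domain. All plants were 11 days old and had grown on Murashige and Skoog plates with 16 h of light and 8 h of dark at 22 °C, with no pathogen or hormone treatment named in the labels. Each library came from TRIzol RNA of 0.05 g of tissue, the labels name genotypes and no alleles, and the libraries of a genotype may be technical repeats, so p-values measure the spread between these libraries.

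The smallest library held 20962202 counts and the largest 22012119, so that 3 counts stood for 0.136 to 0.143 CPM, counts scaled to a common library total. FHA2 had 3.05 and 1.01 CPM in fha2, against 23.5 and 24.4 CPM in Col, and RLT2 had 2.19 and 2.21 CPM in rlt1/2, against 28.2 and 34.1 CPM in Col. RLT1 had 15.9 and 16.8 CPM in rlt1/2, against 25.4 and 35.7 CPM in Col. CHR11 stood at 73.4 and 69.7 CPM in the libraries labelled chr11/17, against 47.2 and 46.3 CPM in Col, and CHR17 at 22.6 and 22.9 CPM, against 17.2 and 22.5 CPM. RLT1 and CHR17 overlap neighbours in the table, which leaves the split of their reads uncertain. Neither CHR11 nor CHR17 was lower in chr11/17, so chr11/17 is used below as the name on these libraries. Leaf markers (7 genes) summed to 22610 and 20660 CPM in chr11/17, 60100 and 58520 CPM in rlt1/2, 70720 and 66300 CPM in fha2, and 121500 and 108600 CPM in Col. None of the 7 was at 0 in any genotype. Fewer cells of a type and less RNA per cell cannot be told apart in whole seedlings, and the part of tissue make-up in the results below was not tested.

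Most salicylic acid of Arabidopsis begins in the plastid, where isochorismate synthase turns chorismate into isochorismate, which is exported to the cytosol and turned there into the free hormone. EDS1 and PAD4, a pair of lipase-like proteins, raise this synthesis after a pathogen is recognised. NPR1 binds the hormone and works with TGA transcription factors, which bind DNA at TGACG cores, to switch on PR genes, and WRKY factors bind the W-box core TTGAC in many of the same promoters. Salicylic acid and jasmonate signalling are known to restrain each other in many settings.

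The members did not move as 1 group in any mutant. Against Col, 3 of the 10 were called higher in chr11/17 (PR1, BGL2 and EDS5) and 6 lower (PRB1, PR5, PCC1, ICS1, EDS1 and NPR1), at a Benjamini-Hochberg adjusted p under 0.05 in edgeR's quasi-likelihood test over all genes. In that comparison 69.1% of all tested genes were called, 34.8% higher and 34.4% lower. In rlt1/2, 3 were called higher (BGL2, PCC1 and EDS5) and 3 lower (PR1, PRB1 and ICS1), beside 37.5% of all genes, 18.7% in each direction. In fha2, 1 was called higher (BGL2) and 1 lower (PCC1), beside 15.1% of all genes, 6.33% higher and 8.76% lower. The median log2 change of the 10 was -0.62 in chr11/17, -0.22 in rlt1/2 and -0.02 in fha2, and that of all tested genes was -0.01, 0.01 and 0.01. These 3 comparisons share the Col libraries.

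Scaling moved the directions. With total counts in place of TMM factors the all-gene medians became 0.27, 0.29 and 0.26, and the share of calls that were higher was 63.9% in place of 50.3% in chr11/17, 81.4% in place of 50% in rlt1/2 and 90.1% in place of 41.9% in fha2. Changes below are relative to the TMM scale, on which the all-gene medians were near 0. Both libraries of a mutant lay outside both Col libraries for 9 members in chr11/17 (2 higher, 7 lower), 7 in rlt1/2 (3 higher, 4 lower) and 6 in fha2 (4 higher, 2 lower). The same held for 82.8%, 69.4% and 61.3% of all tested genes.

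**Figure D1:**
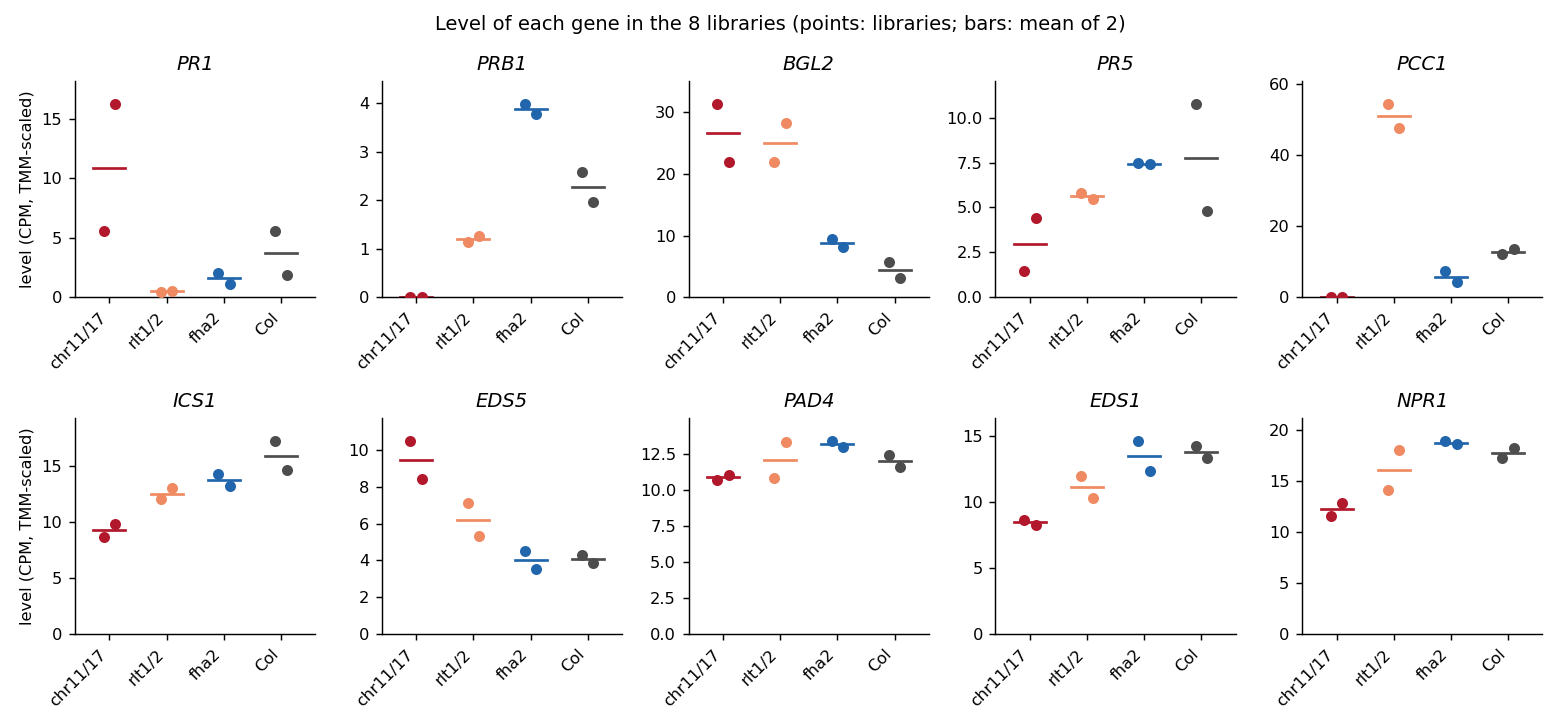
Level of each member in CPM (vertical axes, linear, from 0) in the 2 libraries of each genotype, with bars at the mean. PCC1 stands at 54.4 and 47.6 CPM in rlt1/2 and near 0 in chr11/17, BGL2 is high in chr11/17 and rlt1/2, and PAD4 lies between 10.7 and 13.4 CPM in every library.

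Levels of different genes can be set side by side only per transcript length, which the authors' deposited FPKM values provide. In Col the members had mean levels between 1.54 FPKM (EDS5) and 14.8 FPKM (PCC1), with BGL2 at 3.08 ± 1.117 FPKM (SD, n = 2) and PR1 at 3.55 ± 2.37 FPKM (SD, n = 2). In chr11/17 BGL2 was the highest of the 10 at 22.2 ± 4.51 FPKM (SD, n = 2). In rlt1/2 PCC1 was the highest at 71.1 ± 6.51 FPKM (SD, n = 2), with BGL2 next at 21.1 ± 3.85 FPKM (SD, n = 2).

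PCC1 (AT3G22231, "pathogen and circadian controlled", a small protein gene on chromosome 3) was the member whose level ranged most widely. It had 54.4 and 47.6 CPM in rlt1/2, against 12.2 and 13.7 CPM in Col, a log2 change of 1.98 ± 0.17 (SE, adjusted p = 4.37e-06). It had 7.55 and 4.21 CPM in fha2, below both Col libraries, a log2 change of -1.14 ± 0.20 (SE, adjusted p = 0.00427). In chr11/17 it had 1 count in each library after rounding, and the 2 counts stood against 478 in Col. Scaled to library size that is a level 294-fold lower in chr11/17 (exact 95% interval 81.0 to 2437, counting error only), with an adjusted p of 1.3e-08. No library of any genotype overlapped with those of another, and the order of the genotypes was rlt1/2, Col, fha2, chr11/17. All 3 calls against Col held under each of the 17 alternatives tried for them.

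PCC1 lies in a tandem cluster of similar genes on the minus strand. AT3G22235, whose start is 8596 bases away, shares 93.0% of aligned coding bases with it and a run of 166 identical bases, so the split of reads between the pair is uncertain. AT3G22240, 17783 bases away, shares 83.1% and no run over 17 bases. AT3G22235 followed PCC1: it had 0.953 and 1.06 CPM in chr11/17, 79.9 and 61.0 CPM in rlt1/2, 14.0 and 8.20 CPM in fha2, and 23.3 and 31.0 CPM in Col. Its log2 changes over Col were -4.74 ± 0.31 in chr11/17 (SE, adjusted p = 3.59e-08), 1.38 ± 0.20 in rlt1/2 (SE, adjusted p = 0.000178) and -1.29 ± 0.22 in fha2 (SE, adjusted p = 0.00337).

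The third gene of the cluster moved otherwise in chr11/17, while in fha2 it was lower, as PCC1 and AT3G22235 were. AT3G22240 had 31.6 and 26.3 CPM in chr11/17, 17.4 and 14.8 CPM in rlt1/2, 16.3 and 11.6 CPM in fha2, and 24.1 and 18.3 CPM in Col. It was higher in chr11/17 (log2 change 0.45 ± 0.17 SE, adjusted p = 0.0293), not called in rlt1/2 (-0.40 ± 0.17 SE, adjusted p = 0.0907) and lower in fha2 (-0.60 ± 0.18 SE, adjusted p = 0.0379). With the counts of PCC1 and AT3G22235 added together, which removes the uncertainty of the split, the pair had 0.998 and 1.11 CPM in chr11/17, 134 and 109 CPM in rlt1/2, 21.6 and 12.4 CPM in fha2, and 35.5 and 44.6 CPM in Col. The summed log2 changes were -5.24, 1.60 and -1.24 (adjusted p = 1.13e-08, 4.46e-05 and 0.00301), a sum that was chosen after seeing the data. AT3G22235 had more counts than PCC1 in every genotype (27.1 against 12.9 CPM in Col). The sum therefore weighs it more and does not show the change of PCC1 itself.

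**Figure D2:**
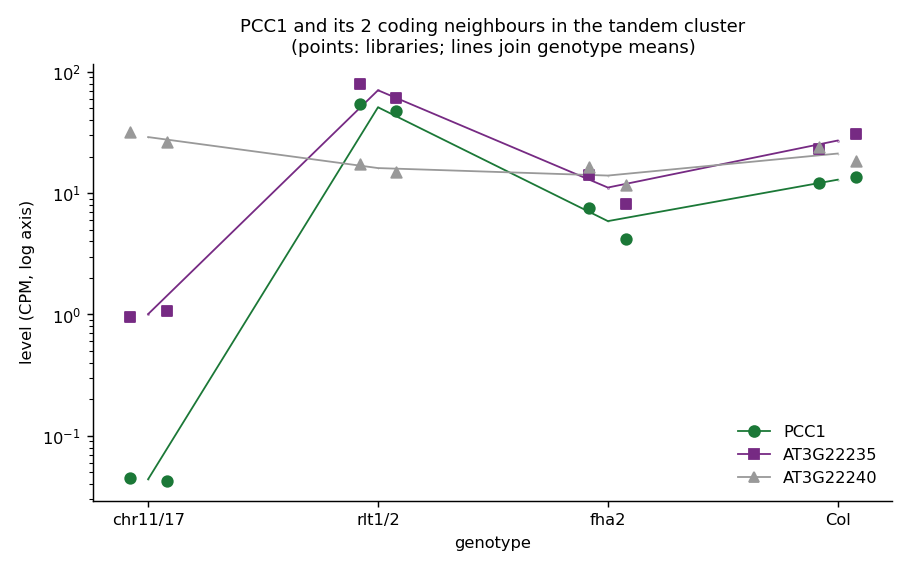
CPM (log axis) of PCC1 and its coding neighbours AT3G22235 and AT3G22240 in each library, with lines through the genotype means. PCC1 and AT3G22235 are lowest in chr11/17 and highest in rlt1/2, while AT3G22240 stays between 11.6 and 31.6 CPM, and the PCC1 points in chr11/17 are 1 count each, under the 3-count limit of 0.136 to 0.143 CPM.

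The 250 bases upstream of the annotated start of these genes are shown because members of the cluster moved together or apart. They are read from the RefSeq sequence of the assembly TAIR10.1 at the start its annotation gives each locus, since the deposited files hold no coordinates, and run 5′ to 3′ toward the gene with TGACG cores on either strand in capitals.
PCC1, chr3:7846834-7847083, minus strand: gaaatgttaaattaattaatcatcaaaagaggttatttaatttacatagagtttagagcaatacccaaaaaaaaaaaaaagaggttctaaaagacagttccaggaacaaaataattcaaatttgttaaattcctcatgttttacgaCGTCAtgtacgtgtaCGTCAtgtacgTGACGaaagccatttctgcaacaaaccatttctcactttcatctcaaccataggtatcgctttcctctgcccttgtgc
AT3G22235, chr3:7855815-7856064, minus strand: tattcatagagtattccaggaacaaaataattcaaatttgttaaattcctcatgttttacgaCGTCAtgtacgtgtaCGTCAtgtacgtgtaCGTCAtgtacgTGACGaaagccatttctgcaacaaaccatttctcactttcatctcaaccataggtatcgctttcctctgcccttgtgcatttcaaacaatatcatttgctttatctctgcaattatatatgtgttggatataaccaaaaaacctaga
AT3G22240, chr3:7864896-7865145, minus strand: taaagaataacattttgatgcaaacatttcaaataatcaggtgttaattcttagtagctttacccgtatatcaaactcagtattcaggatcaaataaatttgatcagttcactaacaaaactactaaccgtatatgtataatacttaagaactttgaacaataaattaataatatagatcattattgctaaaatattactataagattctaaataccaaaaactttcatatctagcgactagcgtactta
PCC1 has 3 TGACG cores, the first beginning at -104 and the last at -78 from the start, and AT3G22235 has 4, the first beginning at -188 and the last at -147. These upstream windows share a run of 105 identical bases, and PCC1 and AT3G22240 share none over 9. AT3G22240 has no TGACG core in its window. Of the 25197 windows of this length in the genes of the table, 18.9% hold at least 1 such core and 0.623% (157 windows) hold at least 3. A match of letters is a description and not a binding site.

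PCC1 is also known for circadian control, so the clock genes are given beside it. Of 10 clock genes tested, 2 were called higher and 4 lower in chr11/17 and likewise in rlt1/2, and fha2 had 0 higher and 1 lower. With total counts these became 5 and 4, 2 and 2, and 3 and 1. On the TMM scale 34.8% of all tested genes were called higher and 34.4% lower in chr11/17, and 18.7% in each direction in rlt1/2. In fha2 these shares were 6.33% and 8.76%, and the clock list was not tested against other genes. The morning gene CCA1 had 32.9 and 28.8 CPM in chr11/17, 41.4 and 48.1 CPM in rlt1/2, 70.4 and 61.6 CPM in fha2, and 70.3 and 72.6 CPM in Col. PRR7, a repressor of morning genes, had 12.9 and 13.9 CPM in chr11/17, 30.1 and 33.4 CPM in rlt1/2, 60.9 and 61.6 CPM in fha2, and 55.0 and 61.3 CPM in Col. The evening gene LUX had 75.1 and 63.0 CPM in chr11/17, 41.4 and 33.9 CPM in rlt1/2, 18.9 and 21.2 CPM in fha2, and 22.0 and 22.1 CPM in Col. CCA1 and PRR7 were called lower and LUX higher in chr11/17 and rlt1/2, and these 3 were the clock genes with the smallest adjusted p there. A part of the clock in the PCC1 result was not tested.

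PRB1 (AT2G14580) encodes a basic relative of PR1 that the annotation describes as expressed in flowers and roots, responsive to ethylene and methyl jasmonate and repressed by salicylic acid. It had 0 counts in both chr11/17 libraries, against 84 counts in the Col libraries, which at 3 counts over the genotype makes it at least 34.5-fold lower in chr11/17 (adjusted p = 9.86e-07). It had 1.14 and 1.26 CPM in rlt1/2, 3.97 and 3.77 CPM in fha2, and 2.58 and 1.97 CPM in Col. The order of the genotypes was therefore fha2, Col, rlt1/2 and chr11/17, with no overlap between any of them. In rlt1/2 the log2 change over Col was -0.92 ± 0.29 (SE, adjusted p = 0.0276), a call lost with DESeq2 (adjusted p = 0.0867), with total counts (0.0972) and when Col 1, rlt1/2 1, rlt1/2 2 or fha2 2 was left out (0.155, 0.131, 0.0816 and 0.0503). In fha2 the log2 change of 0.77 ± 0.26 (SE) did not pass (adjusted p = 0.0655), and 5 of 15 alternatives called it.

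PR1 (AT2G14610), the most used marker of salicylic acid responses, encodes a small secreted protein with antimicrobial activity. It had 5.54 and 16.2 CPM in chr11/17, 0.438 and 0.564 CPM in rlt1/2, 2.08 and 1.14 CPM in fha2, and 5.54 and 1.87 CPM in Col. The lower chr11/17 library and the higher Col library were level, so those genotypes overlapped, while both rlt1/2 libraries lay below all others. In chr11/17 the log2 change over Col was 1.56 ± 0.48 (SE, adjusted p = 0.0114). That call was lost with DESeq2 (0.0807), without chr11/17 2 (log2 change 0.59, adjusted p = 0.266), without Col 2 (0.98, adjusted p = 0.117) and with the counts of PR1 and PRB1 added together (0.87, adjusted p = 0.0746), and the log2 change was 2.54 without Col 1. The authors' deposited table gives it a q-value of 0.204.

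In rlt1/2 PR1 was lower than in Col, with a log2 change of -2.87 ± 0.72 (SE, adjusted p = 0.00774), on 23 counts in all. The call was lost with limma-voom (0.0784), without Col 1 (log2 change -1.88, adjusted p = 0.118) and without rlt1/2 1 (0.0611), and the authors' deposited table gives a q-value of 1.27e-05. In fha2 the log2 change of -1.20 ± 0.59 (SE) did not pass (adjusted p = 0.189). Set directly against each other, the chr11/17 libraries had 21.7 times the PR1 level of the rlt1/2 libraries, a log2 difference of 4.43 ± 0.64 (SE, adjusted p = 7.11e-05) that held in all 17 alternatives. PR1 and PRB1 share 83.5% of coding bases but no run over 23, and they moved in opposite directions in chr11/17.

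BGL2 (AT3G57260), a beta-1,3-glucanase that cuts fungal cell walls, was the only member called higher in all 3 mutants. It had 31.3 and 21.9 CPM in chr11/17, 22.0 and 28.2 CPM in rlt1/2, 9.45 and 8.12 CPM in fha2, and 5.81 and 3.20 CPM in Col. No mutant library overlapped with Col. The ratio to Col was 5.91 in chr11/17 (log2 change 2.56 ± 0.24 SE, adjusted p = 1.03e-06) and 5.57 in rlt1/2 (2.48 ± 0.24 SE, adjusted p = 1.02e-05), and both calls held in all 16 alternatives. Between chr11/17 and rlt1/2 the log2 difference was 0.08 ± 0.20 (SE, adjusted p = 0.732), and their libraries overlapped. In fha2 the ratio was 1.95 (0.97 ± 0.26 SE, adjusted p = 0.0288), a call lost without Col 2 (0.212), fha2 1 (0.146) or fha2 2 (0.0948), and the log2 change was 1.46 without Col 1.

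PR5 (AT1G75040), a thaumatin-like protein, did not go with BGL2. It had 1.497 and 4.42 CPM in chr11/17, 5.78 and 5.46 CPM in rlt1/2, 7.46 and 7.41 CPM in fha2, and 10.7 and 4.80 CPM in Col. Both chr11/17 libraries lay below all others, and the rlt1/2 and fha2 libraries lay between the Col libraries. In chr11/17 the log2 change over Col was -1.38 ± 0.40 (SE, adjusted p = 0.00823), a call lost with DESeq2 (0.0522), without Col 1 (log2 change -0.69, adjusted p = 0.174) and without chr11/17 1 (-0.81, adjusted p = 0.0549), while the log2 change was -2.37 without chr11/17 2. The authors' deposited table gives a q-value of 0.201. In rlt1/2 (-0.46 ± 0.37 SE) and fha2 (-0.06 ± 0.36 SE) no call was made, with adjusted p of 0.351 and 0.929.

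PR1 and PR5 were the members whose 2 libraries of a genotype stood farthest apart. In chr11/17 the second library was higher by 2.90-fold for PR1 and 2.84-fold for PR5, and as large a gap was found in 0.949% and 0.987% of tested genes. In Col the first library was higher by 2.87-fold for PR1, 2.22-fold for PR5 and 1.79-fold for BGL2, gaps found in 0.935%, 2.00% and 4.45% of tested genes. In chr11/17 BGL2 went the other way, with the first library higher by 1.43-fold. The other members differed by at most 1.32-fold between libraries in every genotype, except PCC1 in fha2 (1.78-fold), where PR1 differed by 1.76-fold.

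**Figure D3:**
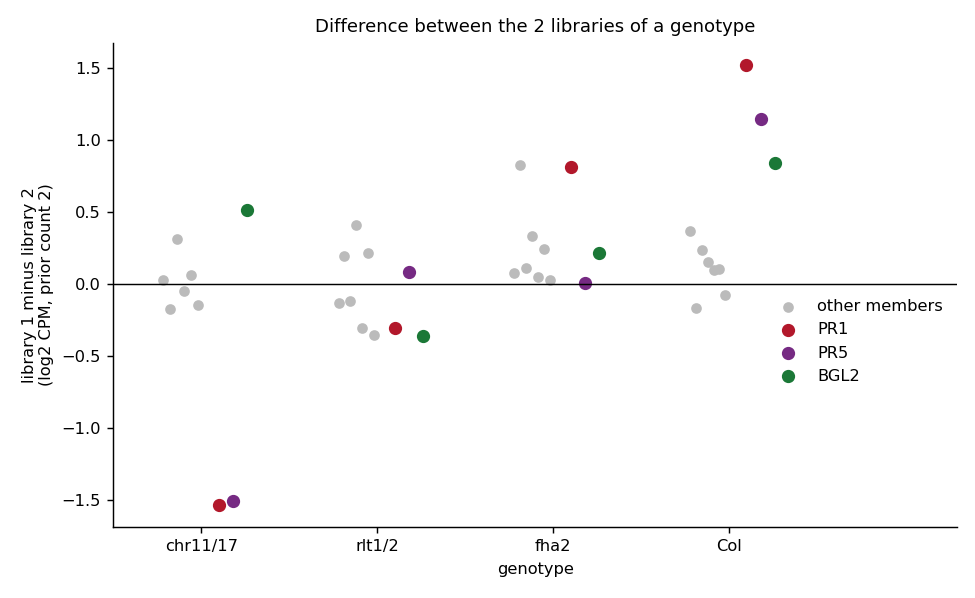
Difference between the first and second library of each genotype (log2 CPM with a prior count of 2) for PR1, PR5, BGL2 and the other members, with PRB1 left out of chr11/17 where it had 0 counts. PR1 and PR5 lie at -1.53 and -1.51 in chr11/17 and at 1.52 and 1.15 in Col, away from the other members.

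The upstream windows of PRB1, BGL2 and PR5 are shown because these response genes parted: BGL2 was higher in each mutant, PR5 lower or not called, and PRB1 lower in chr11/17 and rlt1/2. The assembly and reading direction are as above. Capitals mark a W-box core TTGAC on either strand in PR5 and the G-box CACGTG, a motif bound by bZIP and bHLH factors, in BGL2. PRB1 holds none of the 3 motifs.
PRB1, chr2:6226228-6226477, minus strand: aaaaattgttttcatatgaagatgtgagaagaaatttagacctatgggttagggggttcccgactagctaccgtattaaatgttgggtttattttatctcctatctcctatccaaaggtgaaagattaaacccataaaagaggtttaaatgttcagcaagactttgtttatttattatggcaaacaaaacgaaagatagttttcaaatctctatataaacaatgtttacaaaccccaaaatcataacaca
BGL2, chr3:21189968-21190217, minus strand: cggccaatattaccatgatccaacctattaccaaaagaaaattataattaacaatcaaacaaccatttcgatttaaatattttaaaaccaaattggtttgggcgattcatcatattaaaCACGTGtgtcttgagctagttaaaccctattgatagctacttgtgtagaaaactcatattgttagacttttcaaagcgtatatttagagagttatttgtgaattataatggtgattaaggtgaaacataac
PR5, chr1:28177420-28177669, plus strand: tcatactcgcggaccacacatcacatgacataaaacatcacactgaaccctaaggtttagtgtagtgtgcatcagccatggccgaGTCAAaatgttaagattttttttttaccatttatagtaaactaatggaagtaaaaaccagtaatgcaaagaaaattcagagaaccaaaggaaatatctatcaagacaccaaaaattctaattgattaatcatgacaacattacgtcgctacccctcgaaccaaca
A W-box core was found in 3 of the 9 member windows read (PR5, EDS5 and EDS1) and in 45.1% of all windows, so its presence is common. The G-box was found in 1 member and in 6.88% of all windows, and PCC1 alone among these 9 had a TGACG core. ICS1, PAD4 and NPR1 hold none of the 3 motifs in this window, which says only that these letters are absent from these 250 bases.

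ICS1 (AT1G74710, listed as EDS16 in the files) encodes the isochorismate synthase of hormone synthesis. It had 8.71 and 9.82 CPM in chr11/17, 12.05 and 13.1 CPM in rlt1/2, 14.3 and 13.25 CPM in fha2, and 17.3 and 14.7 CPM in Col. On the TMM scale every library of a genotype lay above every library of the next, in the order Col, fha2, rlt1/2, chr11/17. In the deposited FPKM values Col (6.88 and 6.21), fha2 (6.99 and 6.54) and rlt1/2 (6.03 and 6.58) overlapped. In chr11/17 the log2 change over Col was -0.78 ± 0.13 (SE, adjusted p = 0.000123), which held in all 16 alternatives. In rlt1/2 it was -0.34 ± 0.12 (SE, adjusted p = 0.0436), and 8 of 16 alternatives did not call it. Among these were total counts (-0.06, adjusted p = 0.746), DESeq2 (0.134) and leaving out Col 1, rlt1/2 1, rlt1/2 2, fha2 1 or fha2 2 (0.272, 0.215, 0.0793, 0.0571 and 0.0632). In fha2 it was -0.21 ± 0.12 (SE, adjusted p = 0.261).

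EDS5 (AT4G39030), the transporter of the plastid envelope that exports the precursor, went the other way. It had 10.5 and 8.42 CPM in chr11/17, 7.10 and 5.33 CPM in rlt1/2, 4.50 and 3.55 CPM in fha2, and 4.28 and 3.84 CPM in Col. The log2 change over Col was 1.22 ± 0.20 in chr11/17 (SE, adjusted p = 0.000128), 0.62 ± 0.21 in rlt1/2 (SE, adjusted p = 0.0322) and -0.01 ± 0.22 in fha2 (SE, adjusted p = 0.982). The rlt1/2 call was lost with DESeq2 (0.068) and without Col 1, Col 2 or rlt1/2 1 (0.0688, 0.152 and 0.252).

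The annotation places EDS5 in overlap with AT4G39040, and no source used here says whether reads were counted by strand. AT4G39040 had 55.4 and 56.4 CPM in chr11/17, 55.0 and 57.9 CPM in rlt1/2, 86.2 and 89.0 CPM in fha2, and 101 and 99.0 CPM in Col. With both genes added together the log2 changes turned to -0.67 in chr11/17 (adjusted p = 8.47e-06) and -0.73 in rlt1/2 (adjusted p = 2.51e-05). AT4G39040 was the more abundant gene and was itself lower, with log2 changes of -0.838 in chr11/17 and -0.825 in rlt1/2, so the sums follow it. They cannot decide how reads were split between these genes, and the direction of EDS5 is uncertain to that extent.

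EDS1 (AT3G48090) and PAD4 (AT3G52430) are the lipase-like partners that act upstream of synthesis. In chr11/17 EDS1 was called lower and PAD4 was not, and these genes were not tested against each other. EDS1 had 8.67 and 8.29 CPM in chr11/17, 12 and 10.3 CPM in rlt1/2, 14.7 and 12.4 CPM in fha2, and 14.3 and 13.3 CPM in Col. It was lower in chr11/17 (log2 change -0.71 ± 0.13 SE, adjusted p = 0.000418), in all 17 alternatives, and was not called in rlt1/2 (-0.31 ± 0.13 SE, adjusted p = 0.0796) or fha2 (-0.03 ± 0.13 SE, adjusted p = 0.893). Its neighbour AT3G48080 shares 84.0% of coding bases and a run of 44, and the sum of the pair was also lower in chr11/17 (-0.65, adjusted p = 0.000898).

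PAD4 was called in no comparison with Col. It had 10.7 and 11.05 CPM in chr11/17, 10.8 and 13.3 CPM in rlt1/2, 13.4 and 12.9 CPM in fha2, and 12.4 and 11.6 CPM in Col. The log2 changes over Col were -0.14 ± 0.13 in chr11/17, 0.01 ± 0.13 in rlt1/2 and 0.14 ± 0.13 in fha2 (SE, adjusted p = 0.344, 0.967 and 0.497). A p that misses the threshold does not show that the level was equal, and the sign in chr11/17 turned with total counts (0.14), which also called PAD4 higher in fha2 (0.39, adjusted p = 0.0417). On the TMM scale both chr11/17 libraries lay below both Col libraries, and the rlt1/2 libraries lay on either side of them. In the deposited FPKM values both chr11/17 libraries (4.77 and 5.25) lay above both Col libraries (4.56 and 4.53).

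NPR1 (AT1G64280), the receptor and coactivator, had 11.6 and 12.9 CPM in chr11/17, 14.2 and 18.1 CPM in rlt1/2, 18.9 and 18.6 CPM in fha2, and 17.3 and 18.2 CPM in Col. Both chr11/17 libraries lay below all others. The log2 change over Col was -0.53 ± 0.13 in chr11/17 (SE, adjusted p = 0.00244), which was not called with total counts (-0.25, adjusted p = 0.13). It was -0.14 ± 0.13 in rlt1/2 and 0.08 ± 0.12 in fha2 (SE, adjusted p = 0.412 and 0.701).

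**Figure D4:**
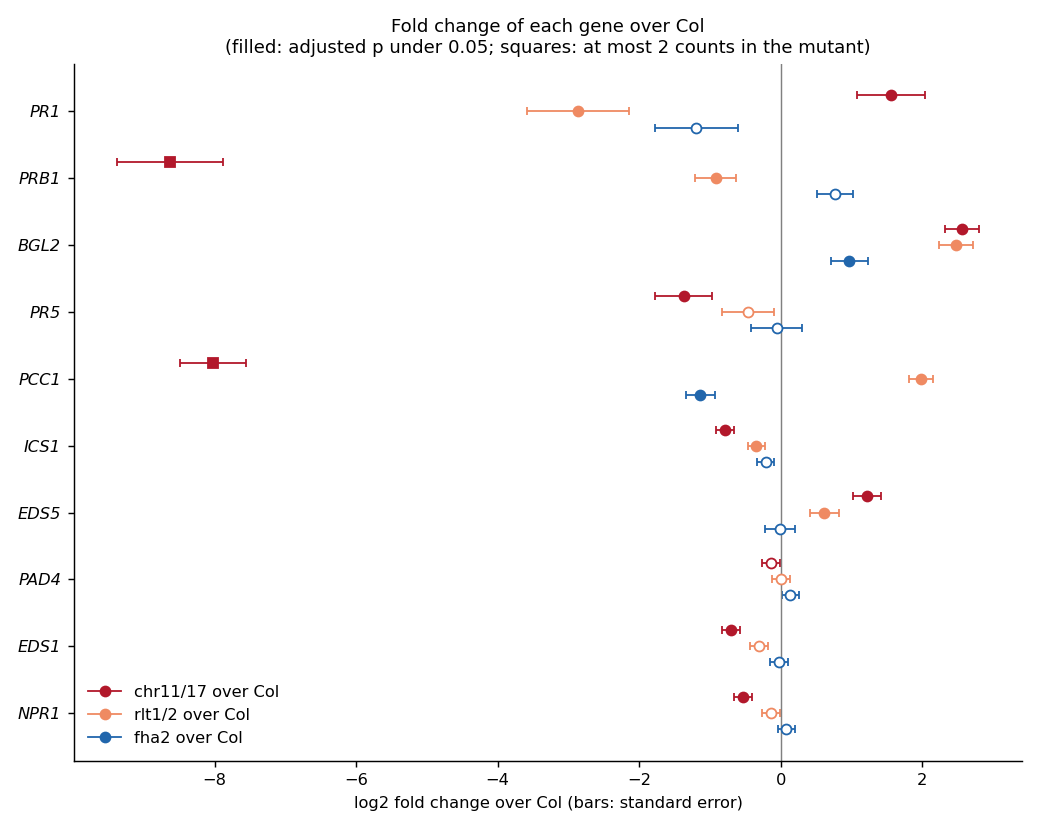
Log2 fold change over Col (horizontal axis) of each member in chr11/17, rlt1/2 and fha2, with standard errors, filled where the adjusted p is under 0.05. PCC1 lies on opposite sides of 0 in chr11/17 and rlt1/2, as does PR1, BGL2 lies right of 0 in all 3 mutants, and the square symbols (PRB1 and PCC1 in chr11/17) rest on at most 2 counts in the mutant and depend on the prior count.

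Between mutants, chr11/17 over rlt1/2 called 2 members higher (PR1 and EDS5) and 5 lower (PRB1, PCC1, ICS1, EDS1 and NPR1), beside 59.4% of all tested genes, 29.3% higher and 30.1% lower. Of these, the PCC1 ratio was 2 counts to 2340, a level 1162-fold lower in chr11/17 (exact 95% interval 321 to 9598). Comparing chr11/17 with fha2, 3 were called higher and 6 lower, beside 70.7% of genes, 35% higher and 35.6% lower, and BGL2 was 3.03 times as high in chr11/17 (log2 difference 1.60 ± 0.21 SE, adjusted p = 2.36e-05). Setting rlt1/2 against fha2, 3 were called higher (BGL2, PCC1 and EDS5) and 1 lower (PRB1), beside 41.1% of genes, 20.9% higher and 20.2% lower, and PCC1 was 8.67 times as high in rlt1/2 (3.12 ± 0.19 SE, adjusted p = 4.9e-07). In chr11/17 over rlt1/2 the calls of ICS1, EDS5 and NPR1 were lost without chr11/17 1 (adjusted p = 0.065, 0.104 and 0.0944) and without rlt1/2 2 (0.0712, 0.135 and 0.224), and that of EDS1 without chr11/17 2 (0.0774) or rlt1/2 1 (0.159). In chr11/17 over fha2 that of PR5 was lost without chr11/17 1 (0.0688), and in rlt1/2 over fha2 that of EDS5 without rlt1/2 1 (0.23) or fha2 2 (0.182). With DESeq2 the calls of EDS1 (0.0826) and NPR1 (0.0548) were lost in chr11/17 over rlt1/2, and that of PR5 (0.0679) in chr11/17 over fha2. With the counts of EDS5 and its more abundant overlapping neighbour AT4G39040 added, the sum was at 0.06 in chr11/17 over rlt1/2 (log2 difference, adjusted p = 0.532).

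Likeness between members was measured as the root mean square (RMS) difference of log2 CPM, centred on each gene's mean over the 8 libraries. ICS1, EDS1, NPR1 and PAD4 were near one another, at RMS 0.130 (ICS1 and EDS1) to 0.248 (EDS1 and PAD4), while the median distance of a tested gene to each of them was 0.404 to 0.468. Each of them had genes outside the members that were nearer, such as ENODL17 at 0.027 from ICS1 and AT-IE at 0.036 from PAD4. The share of tested genes as near was not counted, so this nearness does not mark them as a group. PR1 lay 1.95 from BGL2, 1.92 from PR5 and 4.57 from PCC1, where a tested gene lay at a median of 1.63 from PR1. PRB1 lay 1.55 from PR5 and 1.96 from PCC1, against a median of 2.10 from PRB1, and PCC1 to PRB1 was also under the median of 3.18 from PCC1. PRB1 had 0 counts in chr11/17, so its distances depend on the prior count. With a prior count of 0.5 they were 2.345 from PR5 and 1.825 from PCC1. As these genotypes differ in a large share of genes, nearness is a description of 8 libraries only.

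The single genes nearest to each member were as follows. PCC1 was nearest to AT3G22235 at RMS 0.985, although RTFL18 (1.02) and AT1G12030 (1.05) were about as near and the first changed with a prior count of 0.5. BGL2 was nearest to KNATM (0.258), PR4 (0.283), a chitin-binding PR protein of the ethylene and jasmonate response, and AT4G12290 (0.283). PR1 was nearest to ARI13 (0.624) and PR5 to ACA9 (0.253). PRB1 was nearest to PIN4 (0.208), an auxin exporter, and ICS1 to ENODL17 (0.027). EDS5 was nearest to AT2G27580 (0.092), PAD4 to AT-IE (0.036), EDS1 to ABH1 (0.058) and NPR1 to CBL1 (0.057). With a prior count of 0.5, PIN4 and KNATM were no longer among the 3 genes nearest to PRB1 and BGL2, and all 3 nearest to PRB1, which had 0 counts in chr11/17, were replaced.

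Other genes of the salicylic acid network moved in both directions, as the members did. Their list counts stand beside 34.8% of all tested genes called higher and 34.4% lower in chr11/17, 18.7% in each direction in rlt1/2, and 6.33% higher and 8.76% lower in fha2, and no list was tested against other genes. The median log2 change over all tested genes was -0.01 in chr11/17, 0.01 in rlt1/2 and 0.01 in fha2. Of 7 further synthesis genes, 3 were called higher and 2 lower in chr11/17, 0 higher and 1 lower in rlt1/2, and 2 higher and 0 lower in fha2, and with total counts 3 and 2, 4 and 1, and 5 and 0. EPS1, an acyltransferase-family enzyme of the last step, had 20.5 and 18.9 CPM in chr11/17, against 3.95 and 3.52 CPM in Col (log2 change 2.40 ± 0.14 SE, adjusted p = 1.45e-08). ICS2, the second isochorismate synthase, had 1.59 and 1.15 CPM in chr11/17, against 6.96 and 10.5 CPM in Col (-2.68 ± 0.25 SE, adjusted p = 8.44e-07), and was higher in fha2 at 13.7 and 15.7 CPM (0.75 ± 0.18 SE, adjusted p = 0.0187). PAL3, of the phenylalanine route, was lower in chr11/17 at 4.04 and 3.44 CPM and in rlt1/2 at 12.7 and 13.9 CPM, against 24.5 and 18.0 CPM in Col.

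Of 7 genes that modify the hormone, 5 were called higher and 1 lower in chr11/17, 2 and 0 in rlt1/2 and, in fha2, 1 and 0 (with total counts 5 and 0, 6 and 0, and 2 and 0). The list's median log2 change was 1.27 in chr11/17, 0.69 in rlt1/2 and -0.07 in fha2. BSMT1, which makes the volatile methyl salicylate, had 737 counts in the chr11/17 libraries, against 1 count in the Col libraries, a level 599-fold higher (exact 95% interval 107 to 23670). It overlaps AT3G11490 in the annotation, so the split of their reads is uncertain, as it also is for ICS2, SARD1, DIR1, AT5G52810 and LUX, each of which overlaps a neighbour in the table. MES9, a methyl salicylate esterase, had 25.4 and 25.7 CPM in chr11/17, against 3.51 and 3.36 CPM in Col (log2 change 2.89 ± 0.15 SE, adjusted p = 6.68e-09). UGT76B1, a glucosyltransferase, had 44.1 and 39.4 CPM in rlt1/2, against 12.7 and 14.1 CPM in Col (1.64 ± 0.12 SE, adjusted p = 1.29e-06). DLO1, a salicylic acid hydroxylase, was called higher in all 3 mutants, at 2.04 and 2.55 CPM in chr11/17, 6.31 and 6.20 CPM in rlt1/2, 2.03 and 1.84 CPM in fha2, and 0.932 and 0.800 CPM in Col.

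Regulators of ICS1 and partners of NPR1 (15 tested of 16) split into 4 higher and 5 lower in chr11/17, 4 and 3 in rlt1/2 and, in fha2, 1 and 1, and with total counts 9 and 3, 8 and 2, and 9 and 1. The related activators of ICS1 parted. SARD1 had 3.36 and 3.27 CPM in chr11/17 and 3.33 and 5.20 CPM in rlt1/2, against 1.26 and 1.07 CPM in Col (log2 changes 1.51 ± 0.37 and 1.87 ± 0.36 SE, adjusted p = 0.00292 and 0.0015). CBP60g had 1.18 and 1.32 CPM in chr11/17 and 2.06 and 1.65 CPM in rlt1/2, against 4.88 and 3.25 CPM in Col (-1.70 ± 0.27 and -1.13 ± 0.25 SE, adjusted p = 0.000106 and 0.0039). Among proteins that bind NPR1, NIMIN2 had 5.76 and 6.89 CPM in chr11/17 and 2.98 and 3.30 CPM in rlt1/2, against 1.37 and 1.65 CPM in Col (2.06 ± 0.23 and 1.05 ± 0.24 SE, adjusted p = 3.95e-06 and 0.0044).

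Of 7 WRKY factors tested from 8, 3 were called higher and 1 lower in chr11/17, 3 and 1 in rlt1/2 and, in fha2, 1 and 0, and with total counts 3 and 1, 5 and 0, and 2 and 0. WRKY18 was called higher in all 3 mutants, at 25.4 and 29.5 CPM in chr11/17, 28.8 and 32.6 CPM in rlt1/2, 9.23 and 11.9 CPM in fha2, and 7.40 and 6.77 CPM in Col. WRKY70, which promotes salicylic acid responses over jasmonate ones, had 10.1 and 10.1 CPM in chr11/17 and 42.5 and 53.3 CPM in rlt1/2, against 22.2 and 29.0 CPM in Col. Its log2 changes were -1.34 ± 0.16 in chr11/17 (SE, adjusted p = 9.41e-06) and 0.91 ± 0.15 in rlt1/2 (SE, adjusted p = 0.000441), with the same signs as for PCC1. In chr11/17 over rlt1/2 the log2 difference of WRKY70 was -2.25 ± 0.16 (SE, adjusted p = 1.95e-07). In fha2, where PCC1 was called lower, WRKY70 was not called.

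Of 8 EDS1 partners and helper receptors, 3 were called higher and 2 lower in chr11/17, 3 and 1 in rlt1/2 and, in fha2, 1 and 1, and with total counts 4 and 2, 5 and 0, and 3 and 0. ADR1, a helper receptor that works with EDS1 and PAD4, was called higher in all 3 mutants, at 17.3 and 20.8 CPM in chr11/17, 13.8 and 14.0 CPM in rlt1/2, 13.3 and 14.7 CPM in fha2, and 9.76 and 8.80 CPM in Col. AT5G66900, a helper receptor locus, had 5.22 and 5.19 CPM in chr11/17, against 10.1 and 10.5 CPM in Col (-0.98 ± 0.13 SE, adjusted p = 2.54e-05). Its calls as lower in rlt1/2 and fha2 were lost with DESeq2 (0.135 and 0.0853) and with total counts (0.541 and 0.222). They were also lost when any single library of Col or of the mutant was left out. SAG101, which pairs with EDS1 in place of PAD4, had 13.7 and 13.9 CPM in chr11/17, against 6.91 and 8.90 CPM in Col (log2 change 0.80 ± 0.14 SE, adjusted p = 0.000171).

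Of 5 genes of pipecolate and systemic resistance, 3 were called higher and 1 lower in chr11/17, 3 and 0 in rlt1/2 and, in fha2, 1 and 1, and with total counts 3 and 1, 4 and 0, and 1 and 1. The 3 of rlt1/2 became 0 without Col 1 or Col 2, and 1 with DESeq2 or without rlt1/2 1 or rlt1/2 2. AT5G52810 had 59.0 and 63.2 CPM in chr11/17, against 15.7 and 15.4 CPM in Col (log2 change 1.97 ± 0.10 SE, adjusted p = 4.12e-09). FMO1, the enzyme that makes N-hydroxypipecolate, had 0.953 and 1.19 CPM in chr11/17 and 0.789 and 1.13 CPM in rlt1/2, against 0.274 and 0.320 CPM in Col (log2 changes 1.83 ± 0.50 and 1.67 ± 0.51 SE, adjusted p = 0.00559 and 0.021). DIR1, a lipid transfer protein of systemic resistance, had 5.31 and 18.1 CPM in chr11/17 and 13.7 and 12.8 CPM in fha2, against 54.5 and 57.9 CPM in Col (-2.26 ± 0.33 and -2.08 ± 0.33 SE, adjusted p = 5.21e-05 and 0.00241). Its chr11/17 libraries stood apart, and the log2 change was -3.40 without chr11/17 2 and -1.64 without chr11/17 1. The FMO1 call in rlt1/2 was lost with DESeq2 (0.0663) and without Col 1, Col 2 or rlt1/2 2 (0.0989, 0.0799 and 0.132).

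Of 10 jasmonate and ethylene defence genes, 6 were called higher and 0 lower in chr11/17, 4 and 1 in rlt1/2 and, in fha2, 2 and 0, and with total counts 7 and 0, 5 and 1, and 3 and 0. The median log2 change of these genes was 1.70 in chr11/17, 1.01 in rlt1/2 and 0.26 in fha2, and the 6 of chr11/17 became 4 without chr11/17 2 or Col 2 and with at least 1 CPM required in 2 libraries. PR4 had 1074 and 967 CPM in chr11/17, 704 and 771 CPM in rlt1/2, 257 and 327 CPM in fha2, and 197 and 157 CPM in Col, and was called higher in all 3 mutants, as BGL2 was. JAZ10, a repressor that jasmonate itself induces, had 40.2 and 38.4 CPM in chr11/17, against 1.59 and 2.24 CPM in Col (log2 change 4.35 ± 0.19 SE, adjusted p = 1.42e-09). In rlt1/2 JAZ10 had 2.76 and 1.95 CPM (0.29 ± 0.26 SE, adjusted p = 0.397). LOX2, a lipoxygenase of jasmonate synthesis, was called higher in all 3 mutants, at 892 and 715 CPM in chr11/17, 550 and 628 CPM in rlt1/2, 494 and 496 CPM in fha2, and 359 and 280 CPM in Col. Besides that of AT5G66900, several fha2 calls of the genes named in these lists rested on single libraries. Without fha2 2 they were lost for ICS2, DLO1, WRKY18, ADR1, PR4 and LOX2 (adjusted p = 0.159, 0.0828, 0.243, 0.111, 0.0908 and 0.0861). Without Col 2 they were lost for DLO1, WRKY18, ADR1, PR4 and LOX2 (0.0956, 0.143, 0.0783, 0.0528 and 0.0839), without Col 1 for ICS2, DLO1 and WRKY18 (0.12, 0.0533 and 0.0718), and without fha2 1 for ICS2, DLO1 and LOX2 (0.0534, 0.0915 and 0.0673).

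**Figure D5:**
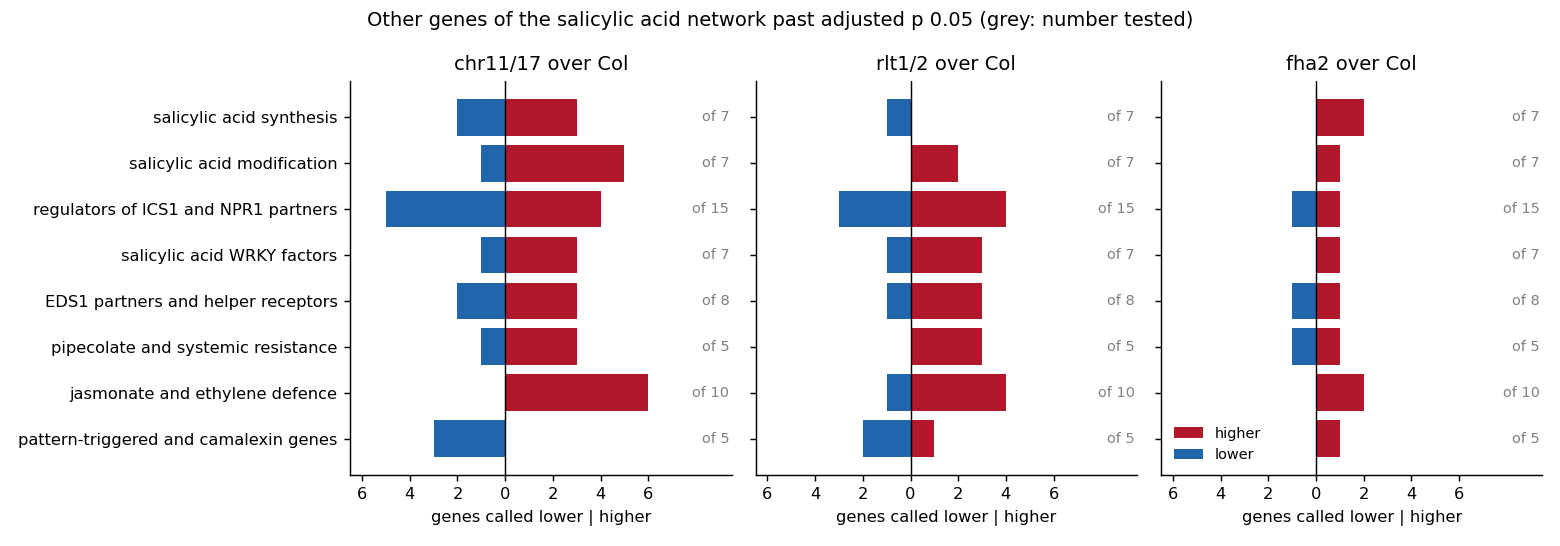
Number of genes called higher (right of 0) and lower (left of 0) than Col in each list of the salicylic acid network, for chr11/17, rlt1/2 and fha2, with the number tested in grey. In chr11/17 jasmonate and ethylene genes have 6 higher and 0 lower, while regulators have 4 higher and 5 lower.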

How the data were processed

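Whole-seedling mRNA was sequenced in 8 libraries of 4 genotypes. The authors deposited 1 table with expected counts per gene, which Bowtie2 and RSEM made on TAIR10 per the submitters' processing notes, and which are neither normalised nor whole (80.8% to 82.1% of values in a library are whole numbers). The deposited FPKM values carry no unit in the file headers, and the unit was recognised from the values. The authors' log2 fold changes, p-values and q-values in the deposited table, for which the notes name DESeq2, were used only where the text says so.

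Expected counts were rounded and tested with edgeR 4.0.16 (R 4.3.3): filterByExpr, TMM factors, the quasi-likelihood test, genotype as the only term, all 8 libraries in 1 fit, 6 comparisons, and Benjamini-Hochberg adjustment over the 20866 genes tested. A gene was called at an adjusted p under 0.05. The SE is the log2 change divided by the root of F. CPM are TMM-scaled, and likeness used log2 CPM with a prior count of 2. Depth and the 3-count limit are given with the libraries, and intervals cover counting error only. The test was checked on simulated counts in which few genes changed, as many up as down. That setting could not check the scaling where a large share of genes changes. Alternatives were DESeq2 1.42.0, limma 3.58.1 (voom), other scalings and filters, the compared genotypes alone, a replicate block, summed neighbours, and leaving out each library, where the lone library of a genotype is assumed to vary like the others.

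All 25198 loci matched the TAIR10.1 annotation, which gave names, neighbours and positions, and identities between coding sequences were aligned with Biopython 1.88. Promoter windows are the 250 bases before the annotated start, searched on both strands for the W-box core TTGAC, for the TGA core TGACG and for the G-box CACGTG. The W-box and TGA cores overlap where TTGACG occurs, and both are then counted. The window of 1 member is not reported here. The members and the gene lists were chosen with earlier results of these data known. Genes named beside the members come from up to 3 called genes of each list with the smallest adjusted p in each mutant, the 3 genes nearest to each member, and close paralogs or neighbours. Not all of these are described, and those that are were picked with their values known.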

Additional observations from a re-analysis of the deposited data

Results flagged for a closer look

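PCC1 and PR1 were flagged because they were called on opposite sides of Col in different mutants and the direct comparison of those mutants was also called. The direct calls below are thus part of the choice and no separate support for it. Those comparisons share the Col libraries, and the PR1 calls over Col were lost in some alternatives, as given above. PCC1 had 0.0454 and 0.0425 CPM in chr11/17, against 54.4 and 47.6 CPM in rlt1/2, a fitted log2 difference of -10.005 (edgeR adjusted p = 2.64e-09) that rests on 2 counts in chr11/17 and depends on the prior count. PCC1 also differed by 3.116 on the log2 scale between rlt1/2 and fha2 (edgeR adjusted p = 4.9e-07), with 54.4 and 47.6 CPM in rlt1/2 and 7.55 and 4.21 CPM in fha2. PR1 differed by 4.428 between chr11/17 and rlt1/2 (edgeR adjusted p = 7.11e-05), with 5.54 and 16.2 CPM in chr11/17 and 0.438 and 0.564 CPM in rlt1/2. The 3 differences were called under every alternative run for them. The lowest and highest log2 values were -10.165 and -6.841 for PCC1 in chr11/17 over rlt1/2, and 2.679 and 4.999 for PR1. Of these, -6.841 belongs to the sum of PCC1 and AT3G22235, and 2.679 to the sum of PR1 and PRB1. With 1 library left out, PCC1 itself ran from -10.099 to -9.908 and PR1 itself from 3.451 to 4.999. Leaf markers summed to 22610 and 20660 CPM in chr11/17, 60100 and 58520 CPM in rlt1/2, and 70720 and 66300 CPM in fha2, and their part in these differences was not tested.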

How the results depend on the processing

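Of 983 recomputed values of the members, 891 kept their direction and their side of the threshold, 47 lost a call, 19 gained one and 26 changed sign. With total counts the log2 change turned to 0.142 for PAD4, 0.023 for RLT2 and 0.201 for FHA2 in chr11/17, to 0.145 for NPR1 and 0.095 for FHA2 in rlt1/2, and in fha2 to 0.204 for PR5, 0.044 for ICS1, 0.244 for EDS5, 0.222 for EDS1, 0.193 for CHR11 and 0.235 for RLT1, none of them called on the TMM scale. With limma-voom PR5 (0.056) and RLT1 (0.006) turned in fha2, and with AT3G48080 added EDS1 turned there (0.007). EDS5 with AT4G39040 added was the exception among called values: -0.67 in chr11/17 and -0.731 in rlt1/2 over Col, and -0.488 and -0.549 over fha2. These sums follow AT4G39040, the more abundant gene, and do not show the direction of EDS5 itself.

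Members called lower in rlt1/2 over Col numbered 1 with total counts and 1 with DESeq2, and 3 on the TMM scale with edgeR. Those called higher in fha2 over Col numbered 3 with total counts, 2 with limma-voom and 2 with only the compared genotypes, in place of 1. DESeq2 called 3 lower in chr11/17 over rlt1/2 in place of 5, and the compared genotypes alone gave 3 lower in rlt1/2 over fha2 in place of 1. Over all genes, fha2 over Col had 6724 calls with total counts in place of 3148.

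Leaving out 1 library gave, over Col in rlt1/2, log2 changes of -0.934 to 0.23 for PR5, -0.153 to 0.154 for PAD4 and -0.327 to 0.028 for NPR1. In fha2 it gave -0.53 to 0.635 for PR5, -0.198 to 0.152 for EDS5, -0.167 to 0.086 for EDS1, -0.11 to 0.278 for CHR17, -0.233 to 0.255 for RLT1 and -0.041 to 0.233 for RLT2. Between mutants, BGL2 ran -0.194 to 0.321 and PAD4 -0.297 to 0.009 in chr11/17 over rlt1/2, and PAD4 -0.289 to 0.018 in rlt1/2 over fha2. Members called ran 0 to 3 lower in rlt1/2 over Col, 0 to 2 higher in fha2 over Col, 1 to 2 higher and 3 to 6 lower in chr11/17 over rlt1/2, and 1 to 2 lower in rlt1/2 over fha2. All-gene calls ran 444 to 4050 in fha2 over Col and 5008 to 9233 in rlt1/2 over fha2. The causes were not tested.

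Replicate numbers did not pair the samples (correlations of deviations -0.11 to 0.07). With the replicate number as a block the calls over all genes were 14293, 7653 and 3045 in chr11/17, rlt1/2 and fha2 over Col, and for the members only the ICS1 call in rlt1/2 was lost (adjusted p = 0.0545). With crossed numbers for chr11/17 and Col, chosen after seeing the data, 3 members were called higher and 6 lower. With 2 libraries a genotype, PR1 and PRB1 are limited by counts in rlt1/2 and chr11/17.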

Other observations

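Senescence and pattern-triggered genes, both of which take part in processes that salicylic acid touches, moved in chr11/17 as follows. SAG13, an early senescence gene, had 371 and 328 CPM in chr11/17, 9.55 and 2.95 CPM in rlt1/2, 3.09 and 4.12 CPM in fha2, and 1.92 and 2.88 CPM in Col (log2 change in chr11/17 over Col 7.18 ± 0.37 SE, edgeR adjusted p = 5.14e-09). SAG29, a sugar transporter of senescing tissue that is also expressed in seeds, had 620 and 572 CPM in chr11/17, against 25.2 and 36.7 CPM in Col. SEN1, a gene induced in the dark, went the other way, with 24.9 and 16.5 CPM in chr11/17, against 122 and 127 CPM in Col (-2.59 ± 0.20 SE, edgeR adjusted p = 1.3e-07). SAG12, the gene most used as a senescence marker, was at no more than 1 count in any library. Of 5 senescence genes tested of 6, 3 were called higher and 2 lower in chr11/17, 2 and 3 in rlt1/2 and, in fha2, 1 and 1 (with total counts 3 and 2, 2 and 2, and 2 and 1).

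Of 5 pattern-triggered and camalexin genes tested of 7, 0 were called higher and 3 lower in chr11/17, 1 higher and 2 lower in rlt1/2, and 1 higher and 0 lower in fha2 (with total counts 0 and 2, 2 and 2, and 1 and 0). Over all tested genes 34.8% were called higher and 34.4% lower in chr11/17, and 18.7% in each direction in rlt1/2. In fha2 these shares were 6.33% and 8.76%, and neither list was tested against other genes. FLS2, the flagellin receptor, and WRKY29 overlap neighbours in the table, so the split of their reads is uncertain. FLS2 had 7.62 and 8.16 CPM in chr11/17 and 4.51 and 5.94 CPM in rlt1/2, against 13.8 and 13.1 CPM in Col. CYP81F2, of indole glucosinolate synthesis, had 0.771 and 1.15 CPM in chr11/17 and 2.50 and 1.73 CPM in rlt1/2, against 5.92 and 6.72 CPM in Col. WRKY29 was lower in chr11/17 (-0.82 ± 0.28 SE, edgeR adjusted p = 0.0192), a call lost with total counts (0.118) and without Col 1 (0.0973) or chr11/17 1 (0.157). Flower markers summed to 340 and 269 CPM in chr11/17, 154 and 159 CPM in rlt1/2, 10.4 and 20.8 CPM in fha2, and 4.93 and 7.63 CPM in Col. Of 4 flower markers tested of 6, 4 were called higher and 0 lower in chr11/17, 3 and 0 in rlt1/2 and, in fha2, 1 and 0. The flower marker AG went the other way in chr11/17, with 1 count against 8 in Col. Seed markers summed to 461 and 194 CPM in chr11/17, 108 and 93.8 CPM in rlt1/2, 1.19 and 1.01 CPM in fha2, and 0.548 and 0.800 CPM in Col, where CRB, CRU3 and SESA3 were at 0. Root markers summed to 1491 and 1435 CPM in chr11/17, 1435 and 1343 CPM in rlt1/2, 810 and 802 CPM in fha2, and 673 and 644 CPM in Col. Most of that sum was PYK10, which overlaps a neighbour, at 1419 and 1355 CPM in chr11/17, against 563 and 557 CPM in Col. Of the 10 root markers, 2 were called higher and 4 lower in chr11/17, 2 and 1 in rlt1/2 and, in fha2, 1 and 1 (with total counts 2 and 2, 5 and 0, and 3 and 0).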
